A study of Mus musculus with 42 samples.

Results

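TRBJ1-1 to TRBJ1-6 are the 6 joining (J) segments of the upstream J cluster of the mouse T-cell receptor β (TCRβ) locus. Their clonotypes were taken as every row listed with one of these J segments whose CDR3, the loop that joins the variable (V), diversity (D) and J segments, had an amino acid sequence of letters alone, that is in frame and with no stop codon (productive). By this rule 8867 of 28186 productive clonotypes belonged to the cluster, and the other 19319 carried a segment of the downstream TRBJ2 cluster. The RefSeq annotation places a seventh segment, TRBJ1-7, after TRBJ1-6, and 0 rows were listed with it.

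The study sorted T cells from lung, thymus and spleen and sequenced their TCRβ transcripts, to ask how NIK, the NF-κB-inducing kinase, in the thymic epithelium bears on the T-cell repertoire. Every mouse carried Foxn1Cre, a Cre recombinase active in thymic epithelial cells and not in the T cells that were sequenced. KO mice were Foxn1Cre x NIKfl/fl, with 2 floxed NIK alleles, and WT mice were Foxn1Cre x NIKfl/wt, with 1 floxed and 1 intact allele, so WT is a heterozygous floxed control. The labels give neither age nor sex. The libraries analysed were lung CD4 cells of KO mouse 617, thymus regulatory T cells (Tregs) of KO mouse 618, spleen CD8 cells of KO mouse 617, spleen CD4 cells of KO mouse 597 and spleen CD8 cells of WT mouse 614. CD4 and CD8 cells had been sorted as CD25-CD62L+ and Tregs as CD4+CD25hi. These 5 libraries each come from another group, and the other 37 of 42 samples were not analysed here.

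With 1 library per group no value has a replicate and no test of genotype, lineage or organ was possible, so every comparison is between libraries. In 4 of the 5 pairs compared the mouse changes along with the condition named, and their effects cannot be told apart. Shares carry exact Clopper-Pearson 95% intervals, and ratios of shares carry 95% log intervals, both of which cover counting error only. A segment counted as called where its share in the library named first was at least 25% above or 20% below that in the other, and the interval of the ratio did not hold 1. The libraries held 98655 to 205882 reads and 1724 to 16703 productive clonotypes, of which 585 to 5015 used TRBJ1. The β-chain files hold no CD4, CD8, Foxp3 or NIK reads, so neither sort nor genotype could be checked in them.

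In the thymus a D segment is first joined to a J segment, and a V segment is then joined to that product. Each J cluster has a D segment in front of it: TRBD1 can join either cluster, while TRBD2 lies downstream of TRBJ1 and by ordinary deletional joining meets only TRBJ2. The J segment supplies the C-terminal side of CDR3 up to its conserved phenylalanine, bases can be lost from its 5′ end, and non-templated or palindromic bases can be added at the junction before the chain is tested in selection.

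The 6 segments lie on the plus strand of chromosome 6 (GRCm38.p6, the mm10 build), from TRBJ1-1 at chr6:41533864-41533911 through TRBJ1-2 at chr6:41534001-41534048, TRBJ1-3 at chr6:41534323-41534372, TRBJ1-4 at chr6:41534811-41534861 and TRBJ1-5 at chr6:41535084-41535133 to TRBJ1-6 at chr6:41535554-41535606, a span of 1743 bases. All are annotated as J segments. Their CDR3 ends, shown because every length and junction value below depends on them, were read from the deposited CDR3 sequences as the run that these clonotypes share, back from the Phe codon. Capitals mark the longest run kept whole in at least 80% of standard CDR3s, which start with Cys, end with Phe and have 8 to 20 residues.
TRBJ1-1: caaacACAGAAGTCTTCTTT
TRBJ1-2: caaaCTCCGACTACACCTTC
TRBJ1-3: ttctGGAAATACGCTCTATTTT
TRBJ1-4: tttccaACGAAAGATTATTTTTC
TRBJ1-5: taacaACCAGGCTCCGCTTTTT
TRBJ1-6: ttcctatAATTCGCCCCTCTACTTT
The ends differ in length, with 20 bases in TRBJ1-1 and TRBJ1-2, 22 in TRBJ1-3 and TRBJ1-5, 23 in TRBJ1-4 and 25 in TRBJ1-6. In protein the segments were told apart by their last 4 residues, which were EVFF for TRBJ1-1 (96.1% of its standard CDR3s), DYTF for TRBJ1-2, TLYF for TRBJ1-3, RLFF for TRBJ1-4, APLF for TRBJ1-5 and PLYF for TRBJ1-6 (98.4% to 99.2% in these 5).

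TRBD1, at chr6:41533201-41533212, ends 652 bases before TRBJ1-1 begins, and TRBD2, at chr6:41542163-41542176, begins 6557 bases after TRBJ1-6. The sequences below are runs of the annotated lengths, 12 and 14 bases, between the V and J ends of standard CDR3s. For TRBD1 the run is the most frequent in TRBJ1 CDR3s listed with TRBD1. For TRBD2 it is the most frequent in TRBJ2 CDR3s listed with TRBD2, among runs that start with the first 5 bases of the TRBD1 run. Capitals mark the 5 bases that tell the D segments apart, used further on to check the D segment listed.
TRBD1: ggGACAGggggc
TRBD2: ggGACTGggggggc

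TRBJ1 took the smaller part of the J usage in all 5 libraries. Its share of productive clonotypes was 37.1% (35.5 to 38.8) in KO lung CD4, 29.7% (28.3 to 31.2) in KO thymus Treg, 34.2% (32.4 to 36.1) in KO spleen CD8, 33.9% (31.7 to 36.2) in KO spleen CD4 and 30.02% (29.3 to 30.7) in WT spleen CD8. The lung CD4 interval overlapped that of KO spleen CD8 and KO spleen CD4, and stood above those of the Treg and WT CD8 libraries, which overlapped each other. The cluster as a whole was called in none of the 5 pairs: its ratios ran from 0.876 (0.807 to 0.951) in KO thymus Treg over KO spleen CD4 to 1.14 (1.08 to 1.21) in KO spleen CD8 over WT spleen CD8.

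Within a library the segments at the 5′ end of the cluster were used more than those at its 3′ end, with orders that differed between libraries. KO spleen CD8 followed the genomic order exactly, from TRBJ1-1 to TRBJ1-6. KO lung CD4, KO thymus Treg and WT spleen CD8 were also led by TRBJ1-1, and in each of these 4 libraries it stood above the next segment with no overlap of intervals. KO spleen CD4 was led by TRBJ1-3 at 7.48% (6.28 to 8.83) with TRBJ1-1 at 7.37% (6.18 to 8.70), and no neighbours in its order were separated by their intervals. TRBJ1-5 and TRBJ1-6 held the last 2 places in all 5 libraries, in the order TRBJ1-5 before TRBJ1-6 in KO spleen CD8 and the opposite order elsewhere. Their intervals overlapped in each library.

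TRBJ1-1, the segment nearest to TRBD1, was at 9.24% (8.28 to 10.3) in KO lung CD4, 8.96% (8.07 to 9.92) in KO thymus Treg, 10.6% (9.44 to 11.8) in KO spleen CD8, 7.37% in KO spleen CD4 and 8.04% (7.63 to 8.46) in WT spleen CD8. TRBJ1-2 was at 6.02%, 3.72%, 6.16%, 5.63% and 6.08% in the same order of libraries, the Treg library alone being low, with an interval of 3.14 to 4.38. TRBJ1-3 was at 7.25%, 4.79%, 5.98%, 7.48% and 4.51%, highest in the CD4 libraries. TRBJ1-3 intervals in both CD4 libraries, 6.39 to 8.18 in lung and 6.28 to 8.83 in spleen, lay above those of the Treg library, 4.13 to 5.52, and of WT spleen CD8, 4.20 to 4.84. TRBJ1-4 was at 6.20%, 5.72%, 4.92%, 6.61% and 4.77%, lowest in the CD8 libraries. TRBJ1-5 stood between 2.87% (Treg) and 4.14% (lung CD4), and TRBJ1-6 between 2.95% (KO spleen CD8) and 4.23% (lung CD4).

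**Figure D1:**
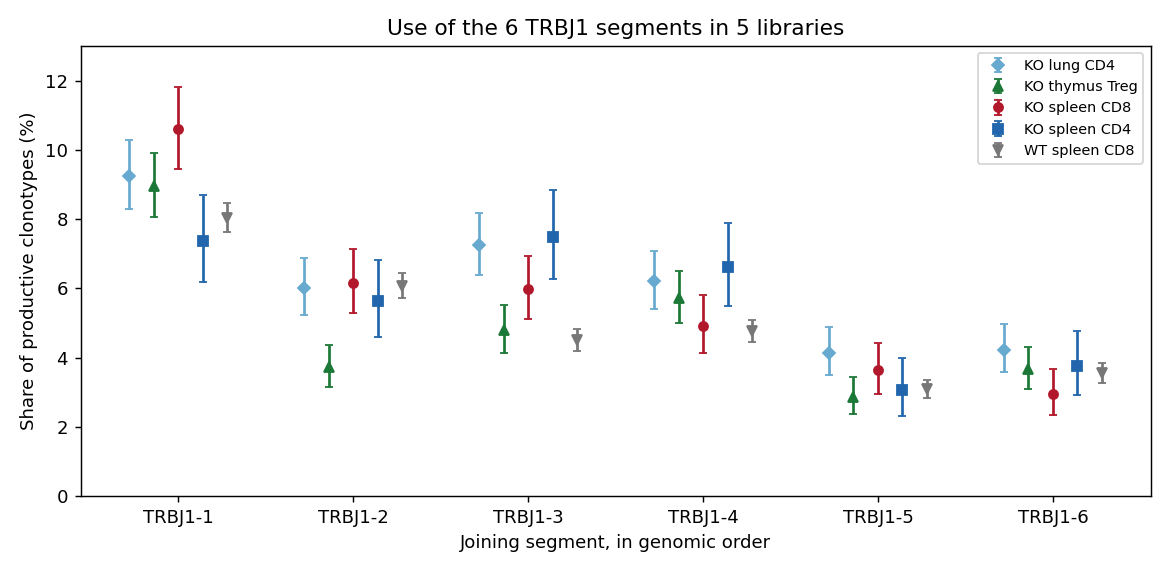
Share of productive clonotypes (%) using each TRBJ1 segment, in genomic order, in the 5 libraries. Points are shares and bars exact 95% intervals of counting error. TRBJ1-1 reached 10.6% in KO spleen CD8 and TRBJ1-2 had its lowest share, 3.72%, in KO thymus Treg.

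Between the spleen CD8 libraries TRBJ1-1 (10.6% in KO, 8.04% in WT) and TRBJ1-3 (5.98% in KO, 4.51% in WT) were higher in KO, with ratios of 1.32 (1.17 to 1.49) and 1.32 (1.12 to 1.56), and the other 4 segments were not called. Over all 31 V and J segments tested in this pair, 9.68% were called higher and 6.45% lower, against 2 of 6 and 0 of 6 here. Within the cluster, which as a whole was larger in KO, other segments were called. TRBJ1-1 held 30.9% of KO and 26.8% of WT TRBJ1 clonotypes, a ratio of 1.16 (1.04 to 1.29) that was not called. The sole call within the cluster was TRBJ1-6, at 8.62% in KO and 11.8% in WT, with a ratio of 0.730 (0.583 to 0.915).

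KO spleen CD8 and KO spleen CD4 gave the whole cluster nearly the same share, a ratio of 1.01 (0.927 to 1.10), and divided it differently. TRBJ1-1 was higher in CD8, at 10.6% against 7.37%, with a ratio of 1.44 (1.18 to 1.76). TRBJ1-4 was lower in CD8, at 4.92% against 6.61%, with a ratio of 0.744 (0.583 to 0.949). TRBJ1-3 was called lower at the edge of both criteria, with a ratio of 0.799 (0.638 to 0.9997). The same 3 segments were called within the cluster, at 1.43, 0.737 and 0.792 for TRBJ1-1, TRBJ1-4 and TRBJ1-3. In this pair 26.5% of the 34 segments tested were called higher and 35.3% lower, so the count of TRBJ1 calls, 1 of 6 and 2 of 6, was near that of all segments.

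Between KO lung CD4 and KO spleen CD4 TRBJ1-1 alone was called, higher in lung at 9.24% against 7.37%, with a ratio of 1.255 (1.03 to 1.53) that just reached the threshold. The call was lost among standard CDR3s (1.22) and with amino acid clonotypes (1.24), and by reads the ratio was 1.94. Of all 34 segments tested, 5.88% were called higher and 5.88% lower. No segment was called within the cluster, where the ratios ran from 0.858 (0.698 to 1.05) for TRBJ1-4 to 1.23 (0.913 to 1.67) for TRBJ1-5. The intervals of the 6 segments allow ratios from 0.698 to 1.67 within the cluster.

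TRBJ1-2 and TRBJ1-3 were used less in the KO thymus Treg library than in KO spleen CD4, a pair in which cell type, organ and mouse all change. TRBJ1-2 was at 3.72% in Treg and 5.63% in spleen CD4, with a ratio of 0.662 (0.514 to 0.852), and TRBJ1-3 was at 4.79% and 7.48% in that order, with a ratio of 0.640 (0.514 to 0.796). Of the 34 segments tested, 2.94% were called higher and 11.8% lower, and TRBJ1 gave 2 of the 4 calls lower. Within the cluster these segments were lower too, at 0.755 and 0.730, and TRBJ1-1 was higher, with 30.1% of Treg and 21.7% of spleen CD4 TRBJ1 clonotypes and a ratio of 1.39 (1.16 to 1.66).

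KO lung CD4 and KO spleen CD8 come from the same mouse, so here lineage and organ change together and the mouse does not. TRBJ1-6 was higher in lung CD4, at 4.23% against 2.95%, with a ratio of 1.44 (1.09 to 1.88), and 1.32 (1.02 to 1.72) within the cluster. Weighted by reads the TRBJ1-6 ratio was 5.56. TRBJ1-4 was higher at 6.20% against 4.92%, with a ratio of 1.26 (1.02 to 1.56), and was not called within the cluster. TRBJ1-1 was not called in this pair, at 9.24% in lung CD4 and 10.6% in spleen CD8, a ratio of 0.873 (0.749 to 1.02). Of the 31 segments tested 38.7% were called higher and 25.8% lower, so that 2 of 6 higher is close to the background. The pairs share libraries, and their values are not independent of one another.

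**Figure D2:**
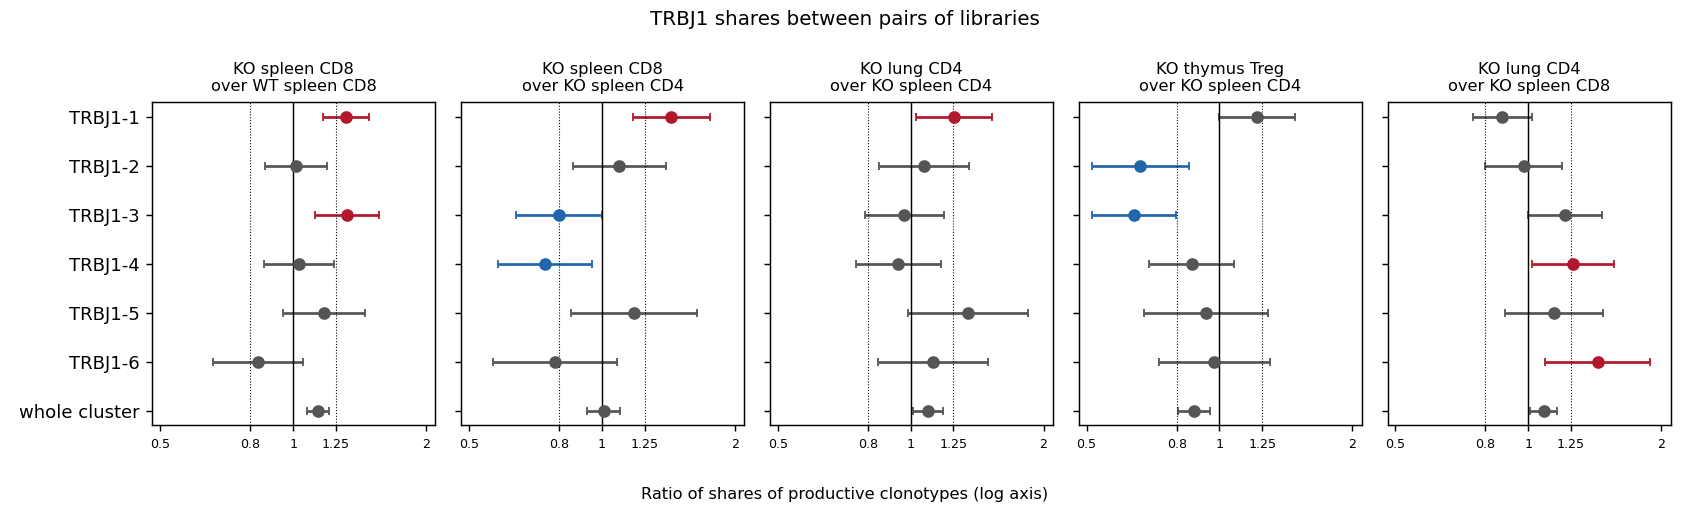
Ratio of shares of productive clonotypes (log axis) for each TRBJ1 segment and the whole cluster in the 5 pairs of libraries, with 95% log intervals. Red points were called higher, blue points lower and grey points neither and dotted lines mark the ratios needed for a call. The whole cluster was grey in all 5 panels, while TRBJ1-1 was red in 3.

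The V segments most often joined to TRBJ1 differed between libraries. The most frequent TRBJ1 partners were TRBV19 (11.01%), TRBV3 (10.1%) and TRBV20 (8.28%) in KO lung CD4 and TRBV19 (12.5%), TRBV3 (11.4%) and TRBV13-2 (9.84%) in KO thymus Treg. In KO spleen CD8 they were TRBV16 (10.1%), TRBV13-2 (9.94%) and TRBV12-2 (9.72%), in KO spleen CD4 TRBV3 (10.8%), TRBV19 (9.74%) and TRBV13-2 (8.55%), and in WT spleen CD8 TRBV12-2 (9.67%), TRBV16 (8.55%) and TRBV13-2 (8.28%). Leading partners were split by lineage label, with TRBV3 and TRBV19 in the CD4 and Treg libraries and TRBV12-2 and TRBV16 in the CD8 libraries. Among these 15, the share in TRBJ1 over that in TRBJ2 was called for TRBV20 in lung CD4 and for TRBV3 in KO spleen CD4 (1.68, 1.22 to 2.32) and Treg (1.35, 1.10 to 1.65).

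V shares were also compared between TRBJ1 and TRBJ2 clonotypes of the same library, which holds mouse, sort and depth fixed. TRBV1 was higher with TRBJ1 in 3 libraries: 8.04% of TRBJ1 and 5.69% of TRBJ2 clonotypes in KO lung CD4 (ratio 1.41, 1.09 to 1.83), 8.51% and 5.12% in KO spleen CD8 (1.66, 1.24 to 2.23, and 4.19 by reads), and 6.60% and 5.14% in WT spleen CD8 (1.28, 1.13 to 1.46). The ratio was also above 1 in KO thymus Treg, at 1.01, and in KO spleen CD4, at 1.09, without a call. The germline end of TRBV1 gives CDR3s that begin CTC, and it lies at the 5′ end of the V array, farthest from the J clusters.

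TRBV20, whose CDR3s begin CGA, was higher with TRBJ1 in KO lung CD4 (8.28% of TRBJ1 and 5.31% of TRBJ2 clonotypes, ratio 1.56), KO thymus Treg (6.71% and 4.96%, 1.35) and WT spleen CD8 (5.06% and 3.84%, 1.32). It was not called in KO spleen CD8, at 1.20, or in KO spleen CD4, at 0.901. TRBV22, annotated as a pseudogene, was lower with TRBJ1 in KO lung CD4 (0.664), KO thymus Treg (0.509) and WT spleen CD8 (0.672) and below 1 in the other libraries. That deficit was not held among standard CDR3s, where no library had a call and the ratio was above 1 in WT spleen CD8 (1.07, with TRBV22 below the 1% needed for a call) and in KO spleen CD8 (1.62, 0.752 to 3.49, against 0.641 over all productive clonotypes). With at least 2 reads per clonotype TRBV22 was not called in KO lung CD4 (0.693) or WT spleen CD8 (0.750). In Treg the TRBV20 ratio was not called with libraries drawn to equal depth (1.29, 0.978 to 1.71). Nor was it called in standard CDR3s (1.31, 0.997 to 1.73), which in that set left TRBV1 as the sole V segment called the same way in 3 libraries.

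The numbers of V segments called higher and lower with TRBJ1 were 4 and 5 of 22 in KO lung CD4 (18.2% and 22.7%), 3 and 5 of 21 in KO thymus Treg (14.3% and 23.8%), 1 and 1 of 19 in KO spleen CD8 (5.26% each), 1 and 1 of 22 in KO spleen CD4 (4.55% each) and 3 and 3 of 19 in WT spleen CD8 (15.8% each). No V segment was called the same way in 4 libraries. The V segments favoured by natural killer T cells, TRBV13-2, TRBV29 and TRBV1, made up 15.8% to 22.1% of TRBJ1 clonotypes and were called higher with TRBJ1 only in KO spleen CD8 (22.1% of TRBJ1 and 17.0% of TRBJ2 clonotypes, 1.30), where TRBV1 alone had a call. The segments favoured by mucosal-associated invariant T cells, TRBV19, TRBV13-2 and TRBV13-3, made up 21.8% to 27.7% of TRBJ1 clonotypes and were called in none of the 5 libraries, with ratios of 0.854 to 1.12.

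**Figure D3:**
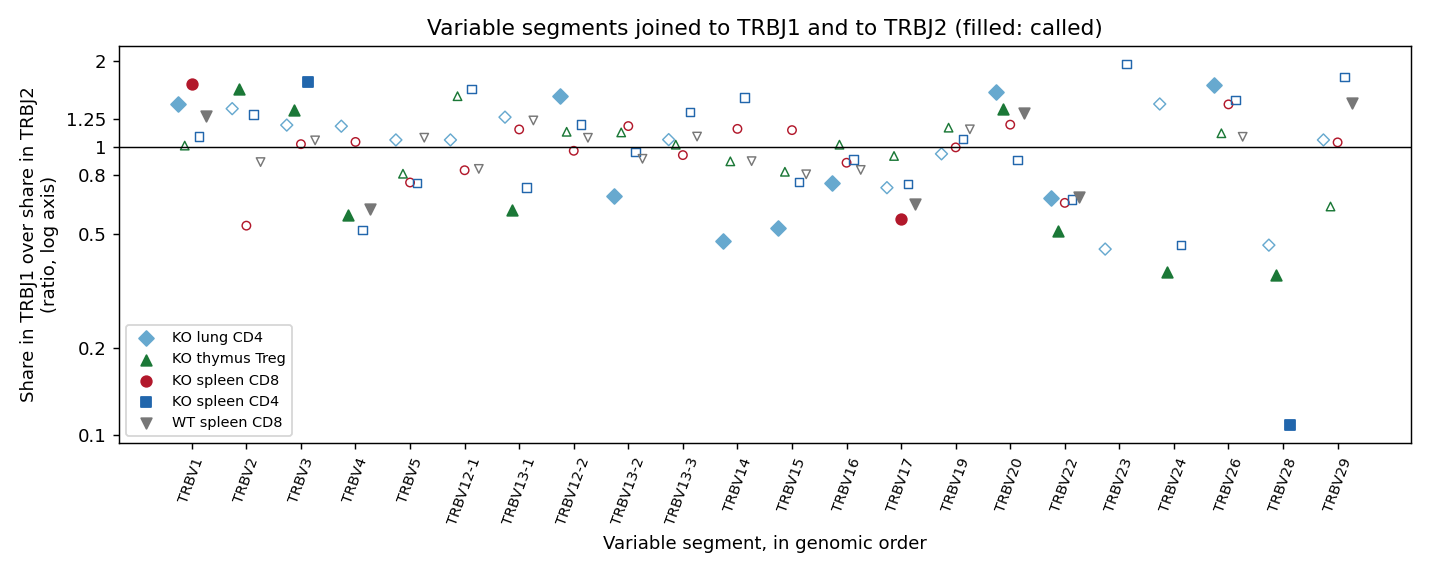
Share of each V segment among TRBJ1 clonotypes over its share among TRBJ2 clonotypes of the same library (log axis), in genomic order of the V segments. Filled symbols were called higher or lower. TRBV1, TRBV3 and TRBV26 lie above 1 and TRBV17 and TRBV22 below 1 in all 5 libraries, and no V segment has more than 3 filled symbols in the same direction.

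The leading V partners of single segments are given here as a description. TRBV3 led TRBJ1-2 in KO lung CD4 (18.8% of its clonotypes), KO thymus Treg (21 of 140) and KO spleen CD4 (23.7%, 23 of 97). TRBV19 led TRBJ1-6 in the same libraries, at 14.1%, 21.01% and 23.1%. TRBV3 and TRBV19 were also the most frequent partners of the whole cluster in these libraries. Each led other TRBJ1 segments as well in KO lung CD4 and KO thymus Treg, but not in KO spleen CD4. In KO spleen CD4 TRBV3 held 15.7 to 33.4% of TRBJ1-2 and 8.38 to 13.6% of the whole cluster by interval. For TRBV19 the intervals were 13.5 to 35.2% of TRBJ1-6 and 7.46 to 12.4% of the cluster. Such intervals also stood apart for TRBV3 in KO lung CD4, and overlapped for TRBV19 there and for both in KO thymus Treg. A preference for single segments was not tested. In KO spleen CD8 TRBV16 led TRBJ1-3 with 19.0% (13.2 to 26.0), whereas in WT spleen CD8 no V segment passed 11.1% with any TRBJ1 segment.

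TRBD1 was the D segment listed for most TRBJ1 clonotypes. It was listed in 55.1% of TRBJ1 and 27.6% of TRBJ2 clonotypes in KO lung CD4, 56.8% and 31.1% in KO thymus Treg, 56.02% and 28.3% in KO spleen CD8, 50.8% and 25.1% in KO spleen CD4 and 57.2% and 28.3% in WT spleen CD8. No D segment was listed for 37.6% to 46.3% of TRBJ1 and 24.1% to 29.8% of TRBJ2 clonotypes. TRBJ1 CDR3s thus lacked a listed D segment more often than TRBJ2 CDR3s in each of the 5 libraries, and the intervals of the shares did not overlap in any. A junction with no D segment listed can still hold the letters of one. The most-read KO thymus Treg clonotype, shown further on, had none listed and holds the TRBD1 letters before its J part. How often this occurred was not counted.

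TRBD2 was nonetheless listed for 332 TRBJ1 clonotypes, 7.55% of those with a D segment in KO lung CD4, 9.03% in KO thymus Treg, 5.41% in KO spleen CD8, 5.41% in KO spleen CD4 and 5.50% in WT spleen CD8. In TRBJ2 clonotypes the figure was 58.7% to 64.3%. Of the 332, only 186 were standard CDR3s. The standard share of these clonotypes was 28.6% in KO lung CD4, 61.9% in KO thymus Treg, 75.9% in KO spleen CD8, 17.6% in KO spleen CD4 and 63.5% in WT spleen CD8. Of all TRBJ1 clonotypes 93.5% to 96.7% were standard. The listed D stretch was short in the TRBJ1 clonotypes listed with TRBD2, with a median of 6 bases, against 9 in TRBJ2 clonotypes listed with TRBD2. The letters that mark TRBD2, GACTG, stood between the V and J ends of 6 of the 332, or 1.81%, and of 45.0% of the TRBJ2 clonotypes listed with TRBD2. Of all clonotypes with the letters of either D segment, those of TRBD2 made up 0.276% in TRBJ1 (6 of 2173) and 64.8% in TRBJ2. By letters, then, TRBD2 was close to absent from TRBJ1 junctions, and the share listed was 5.41% to 9.03%. The letters of TRBD2 had themselves been read from TRBJ2 clonotypes listed with TRBD2.

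The capitals of TRBD1, GACAG, were found between the V and J ends of 2167 TRBJ1 clonotypes, 22.7% of them in KO lung CD4, 22.7% in KO thymus Treg, 26.5% in KO spleen CD8, 19.7% in KO spleen CD4 and 25.4% in WT spleen CD8. In TRBJ2 they were found in 9.57% to 11.7%. Among the members, a D segment was listed least often for TRBJ1-6 in KO spleen CD8 (48.7% with none) and most often for TRBJ1-5 in KO thymus Treg (30.6% with none).

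**Figure D4:**
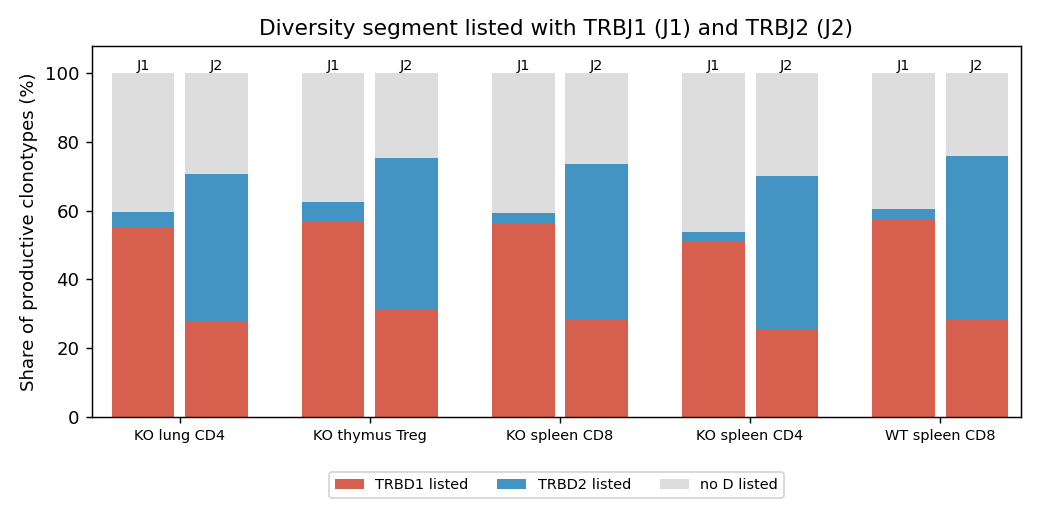
Share of productive clonotypes (%) listed with TRBD1, with TRBD2 or with no D segment, for TRBJ1 (J1) and TRBJ2 (J2) in each library. Bars start at 0 and sum to 100%. TRBD2 takes a thin slice of every TRBJ1 bar, at most 5.64% of all TRBJ1 clonotypes, and between 43.0% and 47.6% of every TRBJ2 bar.

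Most TRBJ1 segments had lost bases at the 5′ end shown above before joining. Over all libraries the whole end was kept in 25.5% of standard CDR3s with TRBJ1-1, 35.7% with TRBJ1-2, 28.6% with TRBJ1-3, 20.4% with TRBJ1-4, 22.4% with TRBJ1-5 and 14.5% with TRBJ1-6. These shares lean on WT spleen CD8, which gave 4848 of the 8505 CDR3s. TRBJ1-2 was kept whole most often and TRBJ1-6 least often in 4 of the 5 libraries. The exception was KO thymus Treg, where TRBJ1-3 was highest at 41.2% and TRBJ1-5 lowest at 19.0%, beside 31.3% for TRBJ1-2 and 19.5% for TRBJ1-6. The most frequent number of bases kept was the whole end for TRBJ1-1, TRBJ1-2 and TRBJ1-3 in every library, and it varied for the others. For TRBJ1-4 it was 20 of 23 in both spleen CD8 libraries, 16 in both CD4 libraries and 23 in Treg. For TRBJ1-5 it was 19 of 22 in KO lung CD4 and both spleen CD8 libraries, and 22 in Treg and KO spleen CD4. For TRBJ1-6 it was 18 of 25 in Treg and WT spleen CD8, the form that begins at the capitals of the TRBJ1-6 line above, 21 in both CD4 libraries and 22 in KO spleen CD8. The Treg share of whole TRBJ1-3 ends (33.7 to 49.0) had an interval that overlapped that of KO spleen CD4, at 28.5% (20.7 to 37.3).

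The base just before a J end that was kept whole was most often the complement of its first base, as a palindromic addition would give. Pooled over the libraries, this was so in 67.2% of whole TRBJ1-1 ends and 64.7% of whole TRBJ1-2 ends, where cytosine was preceded by guanine, and in 64.0%, 61.03%, 77.2% and 59.3% of TRBJ1-3, TRBJ1-4, TRBJ1-5 and TRBJ1-6 ends, where thymine was preceded by adenine. Where bases had been lost, the base before the J part was the complement of the first J base kept in 21.0% (TRBJ1-6) to 52.3% (TRBJ1-4). The share was higher for whole ends in all 6 segments, with intervals apart in 5 of them and barely overlapping in TRBJ1-4, at 55.16 to 66.7 for whole ends and 49.3 to 55.23 for shortened ones. The J part was read back to the first base that left the J sequence. Before a shortened end the germline base was thus excluded, even where it is the complement, as at some lengths of TRBJ1-6. Any base could precede a whole end, so the shares are not of like kind, and the size of this effect was not tested. Bases of the V or D segment can also supply the complement, and their part in these shares was not tested.

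CDR3s with TRBJ1 were shorter than those with TRBJ2 in all 5 libraries. Over standard CDR3s the mean length was 13.02 residues with TRBJ1 and 13.2 with TRBJ2 in KO lung CD4, 13.4 and 13.7 in KO thymus Treg, 13.2 and 13.3 in KO spleen CD8, 12.96 and 13.2 in KO spleen CD4, and 13.2 and 13.4 in WT spleen CD8. The SD over TRBJ1 clonotypes was 1.21 to 1.39 residues, so the difference of means, -0.231 to -0.0705, was small beside the spread among clonotypes. Over all productive clonotypes the difference was larger, -1.27 to -0.399, and more TRBJ2 than TRBJ1 clonotypes had CDR3s outside the standard form: 93.5% to 96.7% of TRBJ1 and 91.8% to 95.7% of TRBJ2 clonotypes were standard.

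TRBJ1 had fewer long CDR3s in all 5 libraries and more short ones in 4. CDR3s of 15 or more residues made up 11.1% of standard TRBJ1 and 15.95% of standard TRBJ2 clonotypes in KO lung CD4 (ratio 0.695, 0.574 to 0.842), 21.0% and 25.8% in KO thymus Treg (0.814, 0.711 to 0.931), 13.4% and 17.9% in KO spleen CD8 (0.748, 0.613 to 0.912), 7.86% and 14.3% in KO spleen CD4 (0.549, 0.399 to 0.757) and 16.2% and 22.8% in WT spleen CD8 (0.710, 0.660 to 0.763). All 5 intervals lay below 1. CDR3s of 12 or fewer residues made up 32.8% of TRBJ1 and 28.8% of TRBJ2 in KO lung CD4 (1.14, 1.02 to 1.27), 23.99% and 19.3% in KO thymus Treg (1.24, 1.09 to 1.42), 28.6% and 26.5% in KO spleen CD8 (1.08, 0.946 to 1.23), 32.9% and 28.1% in KO spleen CD4 (1.17, 1.003 to 1.36) and 30.1% and 26.3% in WT spleen CD8 (1.14, 1.08 to 1.20). Their intervals lay above 1 in each library but KO spleen CD8.

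**Figure D5:**
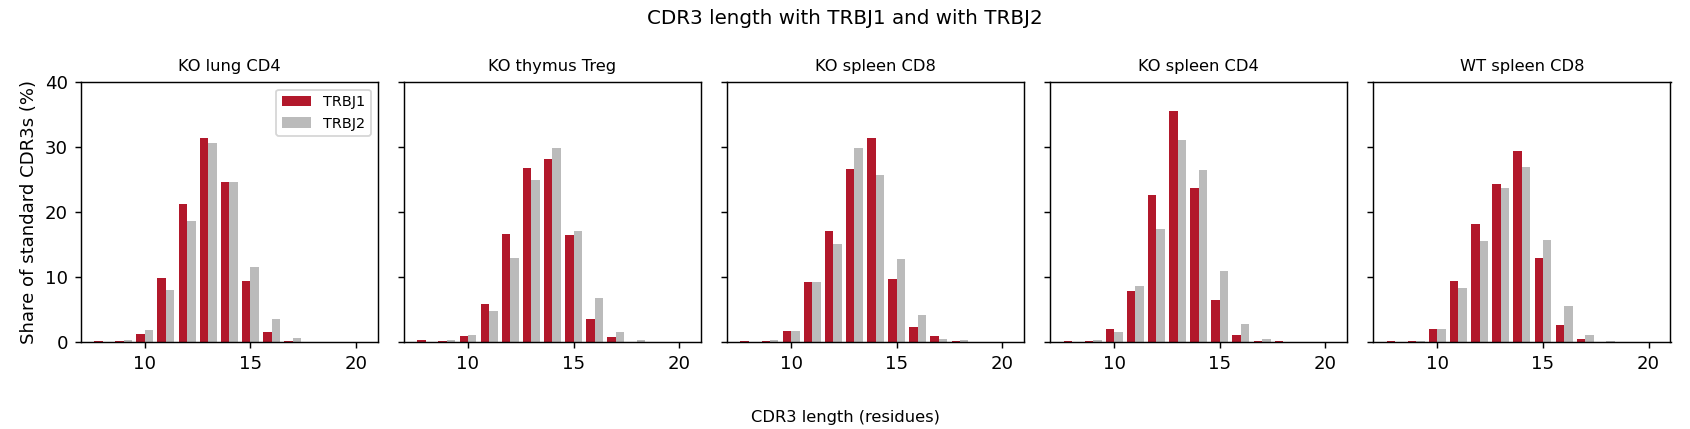
Length of standard CDR3s (residues) with TRBJ1 and with TRBJ2 in each library, as a share of the standard CDR3s of that cluster (%). The TRBJ1 bars are lower than the TRBJ2 bars at 15 and 16 residues in all 5 libraries.

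The members were compared over standard CDR3s. There TRBJ1-1 and TRBJ1-2, which have the shortest germline ends, had shorter mean CDR3s than each of the other 4 segments in all 5 libraries. In WT spleen CD8 the mean was 12.7 residues with TRBJ1-1, 12.95 with TRBJ1-2, 13.4 with TRBJ1-3, 13.6 with TRBJ1-4, 13.5 with TRBJ1-5 and 13.9 with TRBJ1-6. CDR3s of 15 or more residues made up 7.72% with TRBJ1-1 and 32.7% with TRBJ1-6. The same contrast of TRBJ1-1 and TRBJ1-6 was 4.23% and 21.2% in KO lung CD4, 8.70% and 39.8% in KO thymus Treg, 6.23% and 25.3% in KO spleen CD8, and 1 of 120 and 6 of 60 clonotypes in KO spleen CD4. The order among the 4 longer ends did not follow their length in every library. TRBJ1-6 had the longest mean except in KO spleen CD8, where TRBJ1-4 was at 13.9 and TRBJ1-6 at 13.6 residues. TRBJ1-3 was above TRBJ1-4, whose end is longer, in KO thymus Treg (13.9 and 13.7) and KO lung CD4 (13.4 and 13.2). Over all productive clonotypes TRBJ1-1 and TRBJ1-2 were both below the other segments in KO thymus Treg and WT spleen CD8 alone. In KO lung CD4 the means there were 14.1 with TRBJ1-1, 13.98 with TRBJ1-2 and 13.6 with TRBJ1-5. In KO spleen CD8 TRBJ1-6, at 14.5 residues, then stood above TRBJ1-4, at 14.2.

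The KO thymus Treg library differed from KO spleen CD4 in length and junctions, and cell type, organ and mouse cannot be told apart in this pair. Standard TRBJ1 CDR3s averaged 13.4 ± 1.35 residues in KO thymus Treg (SD, n = 1067 clonotypes) and 12.96 ± 1.21 in KO spleen CD4 (n = 560), and those of 15 or more residues were 2.67 (1.97 to 3.63) times as frequent. Among standard CDR3s with a listed D segment and listed ends that did not overlap, 1.80 ± 2.02 bases lay outside the listed V, D and J stretches in Treg and 0.877 ± 1.63 in spleen CD4. Junctions with no such base made up 30.9% in Treg and 63.1% in spleen CD4, a ratio of 0.489 (0.423 to 0.565). Over all productive clonotypes the means turned, to 5.53 ± 16.2 bases in Treg and 5.82 ± 18.6 in spleen CD4, while the ratio of junctions with no such base was 0.494 (0.426 to 0.572). Among standard CDR3s all 6 segments shared this, with 23.9% to 40.9% of junctions without an inserted base in Treg and 50.8% to 73.02% in spleen CD4. It was not particular to TRBJ1: TRBJ2 junctions averaged 2.25 inserted bases in Treg and 1.08 in spleen CD4.

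Among standard CDR3s the other libraries were closer together: TRBJ1 inserted bases averaged 0.959 in KO lung CD4, 0.895 in KO spleen CD8, 0.877 in KO spleen CD4 and 0.976 in WT spleen CD8. Over all productive clonotypes these means were 7.84, 4.45, 5.82 and 3.89 in the same order, with SDs of 22.6, 18.0, 18.6 and 14.5. There 52.9% to 58.9% of junctions had no inserted base, so these means do not describe a typical junction. TRBJ1 CDR3s of 15 or more residues were more frequent in KO lung CD4 than in KO spleen CD4 (ratio 1.41, 1.02 to 1.958) and in KO spleen CD8 than in KO spleen CD4 (1.70, 1.22 to 2.37). Among standard CDR3s KO and WT spleen CD8 had the same mean length of 13.2 residues, a difference of -0.00389, and a ratio of long CDR3s of 0.826 (0.689 to 0.990) that was not called. Compared with TRBJ2 of the same library, standard TRBJ1 CDR3s had fewer inserted bases in 4 libraries, with differences of -0.443 to -0.102, and more in KO spleen CD8, with a difference of 0.0530. Over all productive clonotypes TRBJ1 had fewer in all 5, by differences of -4.08 to -0.307, with -1.20 in KO spleen CD8. These differences were small beside the SDs over TRBJ1 clonotypes, 14.5 to 22.6 bases.

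Reads were spread over TRBJ1 clonotypes very unevenly between libraries. The cluster took 34.7% of productive reads in KO lung CD4, 23.7% in KO thymus Treg, 30.4% in KO spleen CD8, 31.4% in KO spleen CD4 and 23.8% in WT spleen CD8, below its share of clonotypes in each. The median TRBJ1 clonotype had fewer reads than the median TRBJ2 clonotype in all 5 libraries, 8.5 and 11 in KO lung CD4, 26 and 34 in KO thymus Treg, 7 and 9 in KO spleen CD8, 22 and 28 in KO spleen CD4 and 5 and 7 in WT spleen CD8. In KO spleen CD8 the 10 leading TRBJ1 clonotypes held 73.6% of the cluster's reads and 4 clonotypes held 50% of them. In WT spleen CD8 the 10 leading ones held 4.81%, and 915 clonotypes were needed for 50%. KO lung CD4, KO thymus Treg and KO spleen CD4 lay between, with 20.5%, 5.84% and 32.6% in the 10 leading clonotypes.

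The most-read TRBJ1 clonotype of each library is shown with the J part in capitals, which begins where the file lists the J segment and can be set against the germline ends above. Each is a nucleotide CDR3, from the Cys codon to the Phe codon.
KO lung CD4, TRBV20 and TRBJ1-6: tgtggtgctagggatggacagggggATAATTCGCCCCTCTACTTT
KO thymus Treg, TRBV12-2 and TRBJ1-6: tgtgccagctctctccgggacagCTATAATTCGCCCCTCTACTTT
KO spleen CD8, TRBV1 and TRBJ1-2: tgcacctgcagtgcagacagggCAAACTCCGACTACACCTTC
KO spleen CD4, TRBV1 and TRBJ1-6: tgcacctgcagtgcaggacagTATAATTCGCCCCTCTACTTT
WT spleen CD8, TRBV5 and TRBJ1-1: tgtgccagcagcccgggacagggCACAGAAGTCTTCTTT
The lung CD4 clonotype had 2375 reads, 1.74% of productive reads and 24.3% of those with TRBJ1-6. The Treg clonotype had 392 reads, 0.198%, and stood at rank 20 of its library. The KO spleen CD8 clonotype had 13125 reads, 6.86%, and 61.3% of those with TRBJ1-2. The KO spleen CD4 clonotype had 2843 reads, 2.95%, the highest of its library, and the WT clonotype had 1028 reads, 0.667%, also the highest of its library.

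In KO spleen CD8 a single clonotype took most of the reads of 4 of the 6 segments: 61.3% of TRBJ1-2, 56.4% of TRBJ1-3 (with TRBV14, 4544 reads), 79.9% of TRBJ1-4 (with TRBV12-2, 9705 reads) and 67.5% of TRBJ1-5 (with TRBV15, 4962 reads). TRBJ1-1 and TRBJ1-6 were led less strongly, at 19.9% and 33.0%. In WT spleen CD8 the leading clonotype took 1.24% to 1.94% of the reads of 5 segments and 9.44% of TRBJ1-1, and in KO thymus Treg it took 1.41% to 6.29%. Segment shares weighted by reads therefore reflect few clonotypes in the KO spleen CD8 library. By reads TRBJ1-1 had 3.49% in KO and 7.07% in WT spleen CD8, the opposite order to its share of clonotypes.

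The leading KO spleen CD8 clonotype, built from TRBV1 and a whole TRBJ1-2 end, was also in WT spleen CD8 with 94 reads, where it led TRBJ1-2, and was found in 3 libraries in all. Of the distinct TRBJ1 clonotypes (same nucleotide CDR3, V and J), 8062 were in 1 library, 321 in 2, 46 in 3, 5 in 4 and 1 in all 5. KO lung CD4 and KO spleen CD8 of the same mouse shared 71 TRBJ1 clonotypes, 5.71% of the lung CD4 and 7.85% of the spleen CD8 TRBJ1 clonotypes. With TRBJ2 they shared 145, which is 6.87% and 8.34% in that order. KO spleen CD8 and WT spleen CD8, of different mice, shared 111 TRBJ1 clonotypes, which is 12.3% of the KO and 2.21% of the WT ones. For TRBJ2 the number was 218, or 12.5% and 1.87%, so the overlaps were of similar size in both clusters.

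Of the 6 clonotypes found in 4 or 5 libraries, 5 are shown with the J part in capitals, the one in all libraries and then those with the most reads. They show which TRBJ1 junctions recurred across mice.
TRBV15 and TRBJ1-2, in 5 libraries: tgtgCAAACTCCGACTACACCTTC
TRBV12-2 and TRBJ1-2, in 4 libraries: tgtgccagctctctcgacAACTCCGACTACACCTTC
TRBV3 and TRBJ1-2, in 4 libraries: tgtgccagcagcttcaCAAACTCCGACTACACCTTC
TRBV29 and TRBJ1-2, in 4 libraries: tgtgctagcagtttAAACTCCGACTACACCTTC
TRBV19 and TRBJ1-3, in 4 libraries: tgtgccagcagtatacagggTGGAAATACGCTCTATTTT
Of these 5, 4 used TRBJ1-2, kept 18 to 20 of its 20 bases and had no D segment listed. The TRBV15 clonotype had 23 reads over the 5 libraries and only 8 residues. Of its 338 reads, the TRBV12-2 clonotype had 310 in KO spleen CD8, 22 in WT spleen CD8, 4 in KO lung CD4 and 2 in KO thymus Treg.

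Sharing was more frequent with TRBJ1 than with TRBJ2 in the Treg library. There 7.42% (5.96 to 9.12) of TRBJ1 and 4.39% (3.64 to 5.24) of TRBJ2 clonotypes were found in at least 1 other library, a ratio of 1.69 (1.29 to 2.22). In WT spleen CD8 the shares were 5.30% and 4.27%, a ratio of 1.24 (1.07 to 1.44), and 1.31 (1.13 to 1.52) among standard CDR3s. The other 3 ratios were 1.03 in KO lung CD4, 0.9498 in KO spleen CD8 and 0.922 in KO spleen CD4, with intervals that held 1. By segment, TRBJ1-1 or TRBJ1-2 was shared most often in the 4 KO libraries, at 22.5% of TRBJ1-1 in KO spleen CD8 and 17 of 140 TRBJ1-2 clonotypes in KO thymus Treg, and TRBJ1-3 in WT spleen CD8, at 6.90%. TRBJ1-6 was shared least often in KO thymus Treg, at 1.45% (2 of 138), and in WT spleen CD8, at 2.70%.

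The cluster as a whole was less frequent among nonproductive clonotypes, those out of frame or with a stop codon, than among productive ones. Its share of nonproductive clonotypes was 27.4% in KO lung CD4, 17.8% in KO thymus Treg, 21.5% in KO spleen CD8, 20.9% in KO spleen CD4 and 18.7% in WT spleen CD8, and productive over nonproductive gave ratios of 1.35 to 1.67, each with an interval above 1. Of the 30 ratios of single segments, for which no background over TRBJ2 or V segments was taken, 27 were above 1, 17 of them with an interval above 1. TRBJ1-2 went the other way in KO lung CD4, at 6.02% of productive and 8.48% of nonproductive clonotypes (0.710, 0.518 to 0.974), and was below 1 in KO thymus Treg (0.798, 0.553 to 1.15), as was TRBJ1-6 in KO spleen CD8 (0.971, 0.545 to 1.73). Many nonproductive rows had unusual lengths, so the share was also taken among those that begin with a Cys codon and have 24 to 62 bases. There it was 34.01% in KO lung CD4, 23.2% in KO thymus Treg, 29.1% in KO spleen CD8, 29.3% in KO spleen CD4 and 20.3% in WT spleen CD8. Against standard CDR3s the ratios were 1.10 (0.940 to 1.28), 1.31 (1.11 to 1.56), 1.19 (0.979 to 1.44), 1.19 (0.939 to 1.51) and 1.49 (1.33 to 1.67) in the same order. The difference in the cluster's share thus kept its direction in all 5 libraries, with an interval above 1 in the Treg and WT spleen CD8 libraries alone. Single segments were not compared in this set. These ratios compare transcripts, and nonproductive transcripts are subject to decay, so neither set gives the frequency of rearrangement in DNA.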

How the data were processed

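Per the labels' protocols, RNA of sorted cells went into libraries by Takara's SMARTer kit for mouse TCR α and β chains. The build mm10 is named in the submitters' processing notes. The sources used here give no aligner, clonotype caller, error correction or filter. Per the file headers, the deposited tables hold the raw read count of each CDR3 nucleotide sequence, with the fraction of reads, which equals the count over the file's total. Per the file headers, the deposited V, D and J end positions are other values, in bases.

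Each nucleotide CDR3 with its V and J was 1 clonotype and counted once, since reads are PCR copies without stated molecular identifiers. All 46 segment names matched RefSeq symbols of GRCm38.p6, which gave coordinates. J ends, limited by the annotated segment length less the 28 bases after the Phe codon, and D sequences were derived from the deposited CDR3s, since no genome was used here. Listed D stretches lay within the D run in 72.9% (TRBD1) and 73.5% (TRBD2) of standard CDR3s, and in 93.5% and 93.9% once flanking palindromic bases were allowed, so inserted bases are undercounted by such bases. Clonotypes whose listed V end lay at or past the J start were left out of inserted bases. V and J segments were tested in a pair when they reached 1% in either library. Python 3.11.15, pandas 2.3.3, SciPy 1.17.1 and NumPy 2.4.6 were used, and calls and interval coverage were checked on simulated counts.

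V segments are named if called the same way in at least 3 libraries, if among the 3 most frequent TRBJ1 partners of a library, or if in the lists for natural killer T and mucosal-associated invariant T cells. The caption of the V segment figure also names those with ratios on the same side of 1 in all 5 libraries. The members, lists and rules were chosen with earlier results of these data known. Alternatives were at least 2 reads per clonotype, standard CDR3s, amino acid clonotypes, reads as weights, removal of clonotypes that differ by 1 base from another of the same V and J with at least 10 times the reads, equal depth of 98655 reads, and D segments by letters. Removal of clonotypes found in both libraries of a pair, and nonproductive clonotypes of ordinary length, were added after seeing the data.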

Additional observations from a re-analysis of the deposited data

How the results depend on the processing

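Counting reads in place of clonotypes changed the most. By reads the cluster ratio was 1.28 in KO over WT spleen CD8 and 0.756 in KO thymus Treg over KO spleen CD4. By reads TRBJ1-1 turned to 0.494 in KO over WT spleen CD8 and to 0.655 in KO spleen CD8 over KO spleen CD4, and TRBJ1-4 turned to 1.14 in KO spleen CD8 over KO spleen CD4 and to 0.883 in KO lung CD4 over KO spleen CD8. Called ratios that moved by over 1.5 times by reads, in the same direction, were TRBJ1-1 in KO lung CD4 over KO spleen CD4 (1.94), TRBJ1-6 in KO lung CD4 over KO spleen CD8 (5.56), TRBV1 in KO spleen CD8 (4.19) and TRBV22 in KO lung CD4 (0.266). The median difference TRBJ1 minus TRBJ2, -0.550 residues and -1.20 inserted bases over productive clonotypes, became 0.139 and 0.352 by reads, and the inserted bases became 0.150 with at least 2 reads. The cause of these changes was not tested. In KO lung CD4 over KO spleen CD4 0 segments were called among standard CDR3s and 2 at equal depth, against 1. The call of TRBJ1-1 there was also lost with amino acid clonotypes (1.24), and that of TRBJ1-4 in KO lung CD4 over KO spleen CD8 with at least 2 reads (1.26). V segments called the same way in 3 libraries numbered 3, against 1 among standard CDR3s (TRBV1), 2 with at least 2 reads (TRBV1 and TRBV20) and 2 at equal depth (TRBV1 and TRBV22), and among standard CDR3s TRBV22 turned to 1.07 in WT spleen CD8. The median share of TRBD2 among listed D segments was 5.50%, 3.67% among standard CDR3s and 0.235% by letters. Apart from reads as weights, 105 ratios of called segments were recomputed, of which 95 kept the call and 10 lost it, and 6 of 180 ratios that were not called gained one. Counts of calls could not be given by reads. No paired analysis was possible because each group is 1 library. Intervals rest on clonotypes: 53 to 337 for a TRBJ1 segment in the KO libraries and 515 to 1343 in WT spleen CD8, at 98655 to 205882 and 157688 reads.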

Other observations

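Several nucleotide forms of the same amino acid CDR3, V and J were less frequent with TRBJ1 than with TRBJ2 in 4 of 5 libraries. They made up 2.92% (2.02 to 4.08) of TRBJ1 and 4.56% (3.66 to 5.61) of TRBJ2 amino acid clonotypes in KO lung CD4, 3.72% and 4.35% in KO spleen CD8, 2.76% and 3.25% in KO spleen CD4, and 6.32% (5.63 to 7.07) and 8.47% (7.93 to 9.02) in WT spleen CD8. In KO thymus Treg the order was the opposite, at 3.50% (2.46 to 4.81) and 2.62% (2.02 to 3.35). The intervals did not overlap in WT spleen CD8 alone. TRBJ2 has more clonotypes in each library, and the part of that in these values was not tested.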
